A study of Mus musculus with 4 samples.

Results

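The 10 genes described here encode the smooth muscle actins and the proteins that sit on or anchor the actin thin filament: Acta2, Actg2, Tagln, Cnn1, Tpm1, Tpm2, Lmod1, Smtn, Cald1 and Synpo2. They were chosen by name from what they encode, not by a measured value, though with earlier results of these data known. They are 10 of the 18095 genes that the 3 count files have in common. They were followed in smooth muscle cells, taken as cells with at least 5 UMIs (unique molecular identifiers, one per captured mRNA molecule) of Myh11 and none of Pdgfra, and in fibroblasts, taken as cells with at least 1 UMI of Pdgfra and at most 2 of Myh11. The smooth muscle cells were also split into those with at least 5 UMIs of Spp1 and those with none. The series compared cells of second heart field and of other origins from the aorta of male Mef2c-mTmG mice, by droplet-based single-cell RNA sequencing of the 3′ ends of mRNA. mTmG is a reporter that switches from a red to a green membrane protein where Cre recombinase has acted, and cells were sorted on that lineage label as live singlets. All 3 libraries carry this reporter background. SHF_Baseline is second heart field cells without infusion, SHF_AngII is the same lineage after 3 days of infusion of AngII (angiotensin II, the pressor peptide), and CNC_AngII is the other sorted lineage, called CNC in the labels, after 3 days of AngII. A CNC_Baseline sample is named in the labels and was not analysed here, so the response of CNC cells to AngII cannot be given. Neither the ages nor the number of animals behind a library is stated in the labels.

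In smooth muscle, myosin filaments pull on thin filaments made of actin, and the pull is switched on by phosphorylation of the myosin light chain. Tropomyosin lies along the actin filament, while calponin and caldesmon bind actin and restrain the myosin motor. Leiomodin starts new filaments, and smoothelin and synaptopodin 2 tie filaments to the cytoskeleton and to dense bodies, the anchoring points that correspond to the Z-discs of striated muscle. Many of these genes are textbook targets of the serum response factor SRF and its partner myocardin, which bind the CArG box, and their levels are used in the aorta as marks of the contractile state.

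The gene starts are shown first because that CArG box is the known entry point of SRF. Sequences of the 250 bases before the start were read from RefSeq (GRCm38.p6) for 8 of the 10 genes, with 2 starts for Cald1; Tagln and Actg2 had no entry. The CArG box, a run of 10 bases with CC at one end, GG at the other and 6 A or T bases between, was searched on both strands, and so was a relaxed form with 1 of the 6 central bases other than A or T. The exact box was in 0 of the 9 member windows and in 1.47% of all 32851 windows of the same length. The exact or relaxed form was in 1 of the 9 windows and in 8.59% of all windows. That window was the one of Acta2, which held 2 relaxed matches beginning 84 and 34 bases before the start, in capitals below. Acta2 (chr19:34255374-34255623, minus strand) is set beside Cnn1 (chr9:22099003-22099252, plus strand) and Synpo2 (chr3:123236150-123236399, minus strand), a member that was higher and the member that was lowest after AngII in smooth muscle cells; no match was found in the latter windows, which says only that these letters are not in them.
Acta2: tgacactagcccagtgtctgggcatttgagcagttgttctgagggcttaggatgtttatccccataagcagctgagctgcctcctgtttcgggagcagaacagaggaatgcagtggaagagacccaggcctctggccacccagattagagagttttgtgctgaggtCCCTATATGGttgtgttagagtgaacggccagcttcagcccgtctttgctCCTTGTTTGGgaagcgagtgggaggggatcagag
Cnn1: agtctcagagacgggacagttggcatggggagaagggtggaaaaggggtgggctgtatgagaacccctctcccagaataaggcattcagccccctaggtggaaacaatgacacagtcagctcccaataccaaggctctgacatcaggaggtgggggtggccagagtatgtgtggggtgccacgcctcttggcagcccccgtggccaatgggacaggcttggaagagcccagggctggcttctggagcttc
Synpo2: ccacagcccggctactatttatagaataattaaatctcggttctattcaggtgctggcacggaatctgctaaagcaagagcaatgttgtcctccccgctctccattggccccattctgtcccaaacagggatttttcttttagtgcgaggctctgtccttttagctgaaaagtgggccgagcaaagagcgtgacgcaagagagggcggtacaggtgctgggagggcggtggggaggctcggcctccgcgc

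The smooth muscle gate held 2259 of 8374 kept cells in SHF_Baseline, 4639 of 9274 in SHF_AngII and 6410 of 10230 in CNC_AngII, and the fibroblast gate held 3939, 2638 and 845 cells. Median depth was 12441, 13325 and 13470 UMIs per smooth muscle cell, and 9534, 15486 and 12369 UMIs per fibroblast. Between 29 and 34 cell barcodes were shared by each pair of libraries, out of 9412 to 11166 barcodes per library. The median share of mitochondrial UMIs in smooth muscle cells was 7.36%, 5.44% and 5.16%. Each group is 1 library, so no test between groups was possible. Intervals in brackets are 95% intervals that cover counting error alone, and a difference between libraries has no replicate check. Levels are in CPM: a gene's share of all UMIs in the cells summed, on the usual CPM scale. They are not divided by transcript length and are compared within a gene, not between genes. Other cells could enter the smooth muscle gate. The 6 leukocyte markers summed to 3.18 CPM in SHF_Baseline, 1.30 CPM in SHF_AngII and 287 CPM in CNC_AngII, and the 8 fibroblast markers, of which Pdgfra is at 0 by the gate, to 2690, 3319 and 3395 CPM. In the fibroblast gate the same 8 summed to 33538, 20806 and 18022 CPM, so both labels stood out from each other by their markers.

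Together the 10 genes supplied 6.62% (6.61 to 6.63) of all UMIs of smooth muscle cells in SHF_Baseline, 7.49% (7.49 to 7.50) in SHF_AngII and 6.69% (6.68 to 6.69) in CNC_AngII. In fibroblasts the same sum was 0.197%, 0.524% and 0.522%. The smooth muscle share was highest in SHF_AngII, and the fibroblast share was higher in both AngII libraries than in SHF_Baseline. Acta2 and Tagln weigh most in these sums, with 873665 and 635447 of the 1955343 UMIs in SHF_Baseline smooth muscle cells. Taken gene by gene, 5 of the 10 were lower in SHF_AngII than in SHF_Baseline smooth muscle cells.

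In smooth muscle cells, SHF_AngII and SHF_Baseline differed by less than 1.5-fold for 9 of the 10 genes. Synpo2 was the exception and was lower, with 0 genes higher and 1 lower past 1.5-fold. Of the 6991 genes with a mean of at least 10 CPM, 8.73% were higher and 15.6% lower by that rule, or 14.2% and 8.59% when the libraries were scaled by TMM (trimmed mean of M-values). The median log2 ratio was 0.01 for the 10 genes and -0.10 for all genes. TMM scaling moved the median of all genes to 0.07 and that of the members to 0.19, and 1 member was then higher past 1.5-fold.

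Acta2 (chr19:34241090-34255590, minus strand; all gene loci are GENCODE on GRCm38) is the main actin of vascular smooth muscle. Its level in smooth muscle cells was 29567 CPM (29505 to 29629) in SHF_Baseline, 35668 (35624 to 35713) in SHF_AngII and 33556 (33520 to 33593) in CNC_AngII, and every smooth muscle cell of each library held a UMI of it. Both AngII libraries were above SHF_Baseline. The ratio of SHF_AngII to SHF_Baseline was 1.21, or 0.27 on the log2 scale, short of 1.5-fold. That ratio lay between -0.91 and 0.77, the 5th and 95th percentiles of all genes. Actg2 (chr6:83512905-83536265, minus strand), the actin best known from visceral smooth muscle, stood at 375 CPM (368 to 382), 552 (547 to 558) and 445 (440 to 449). Its ratio was 1.47 (log2 0.56, interval 0.53 to 0.59), the largest upward ratio among the 10 in these cells. It passed 1.5-fold when cells with any Spp1 UMI were left out (log2 0.61), and reached 1.21 on the log2 scale under a stricter cell filter (2000 genes or more, mitochondrial share no higher than 5%), which left 110 SHF_Baseline smooth muscle cells. The coding sequences of the actins are nearly identical, and how reads shared between them were assigned is not given in the sources used here.

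Neither tropomyosin passed 1.5-fold. Tpm2 (chr4:43514711-43523765, minus strand) was 7677 CPM in SHF_Baseline, 8983 in SHF_AngII and 7725 in CNC_AngII, so that SHF_AngII stood above 2 libraries that lay close together. Tpm1 (chr9:67022590-67049406, minus strand) was 2176, 1907 and 1763 CPM, highest in SHF_Baseline. The SHF_AngII to SHF_Baseline log2 ratios were 0.23 (0.22 to 0.23) for Tpm2 and -0.19 (-0.20 to -0.18) for Tpm1, the latter -0.01 under TMM scaling.

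Of the calponin-family proteins, Tagln (chr9:45929619-45936058, minus strand), which encodes transgelin or SM22-alpha, was 21505, 23209 and 19076 CPM in SHF_Baseline, SHF_AngII and CNC_AngII. Cnn1 (chr9:22099216-22109630, plus strand), calponin 1, was 1609, 1952 and 1763 CPM. Both were highest in SHF_AngII, by 0.11 and 0.28 on the log2 scale over SHF_Baseline. Exons of Tagln overlap those of Pcsk7 on the other strand, and whether the counting used strand is not given in the sources used here. Pcsk7 was at 4.84 to 10.4 CPM in smooth muscle cells and at 7.33 to 13.0 CPM in fibroblasts, far below the Tagln level in each. Cald1 (chr6:34598500-34775473, plus strand), caldesmon, differed little across the libraries, at 1570, 1468 and 1422 CPM; its SHF_AngII to SHF_Baseline log2 ratio was -0.10, and 0.08 under TMM scaling.

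Of the genes of filament growth and anchoring, Lmod1 and Smtn did not pass 1.5-fold and Synpo2 did. Lmod1 (chr1:135324807-135368065, plus strand), leiomodin 1, was 751 CPM (741 to 761), 613 (607 to 619) and 601 (596 to 605). Smtn (chr11:3517523-3540612, minus strand), smoothelin, was 475 (467 to 483), 344 (340 to 349) and 367 (363 to 371). Their SHF_AngII to SHF_Baseline log2 ratios were -0.29 for Lmod1, or -0.11 under TMM scaling, and -0.46 for Smtn. Exons of Smtn overlap 2 genes on the other strand, Gm11946 and Gm11947, which are not among the genes common to the files. Synpo2 (chr3:123076519-123236149, minus strand), synaptopodin 2, was 469 CPM (461 to 476) in SHF_Baseline, 238 (234 to 241) in SHF_AngII and 174 (172 to 177) in CNC_AngII. SHF_AngII was at 0.508 of SHF_Baseline (log2 -0.98, interval -1.01 to -0.95), and over the 15 alternative settings tried this ratio ranged from -1.01 to -0.78. Cells with a Synpo2 UMI made up 95.7%, 87.6% and 83.1% of smooth muscle cells; after each cell was thinned to 5000 UMIs, the mean per cell was 2.31, 1.26 and 0.973 UMIs. The SHF_Baseline file lists 18760 genes and the AngII files 32285, so baseline and AngII counts come from different gene lists, and the part of that difference in any SHF_AngII to SHF_Baseline ratio was not tested.

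**Figure D1:**
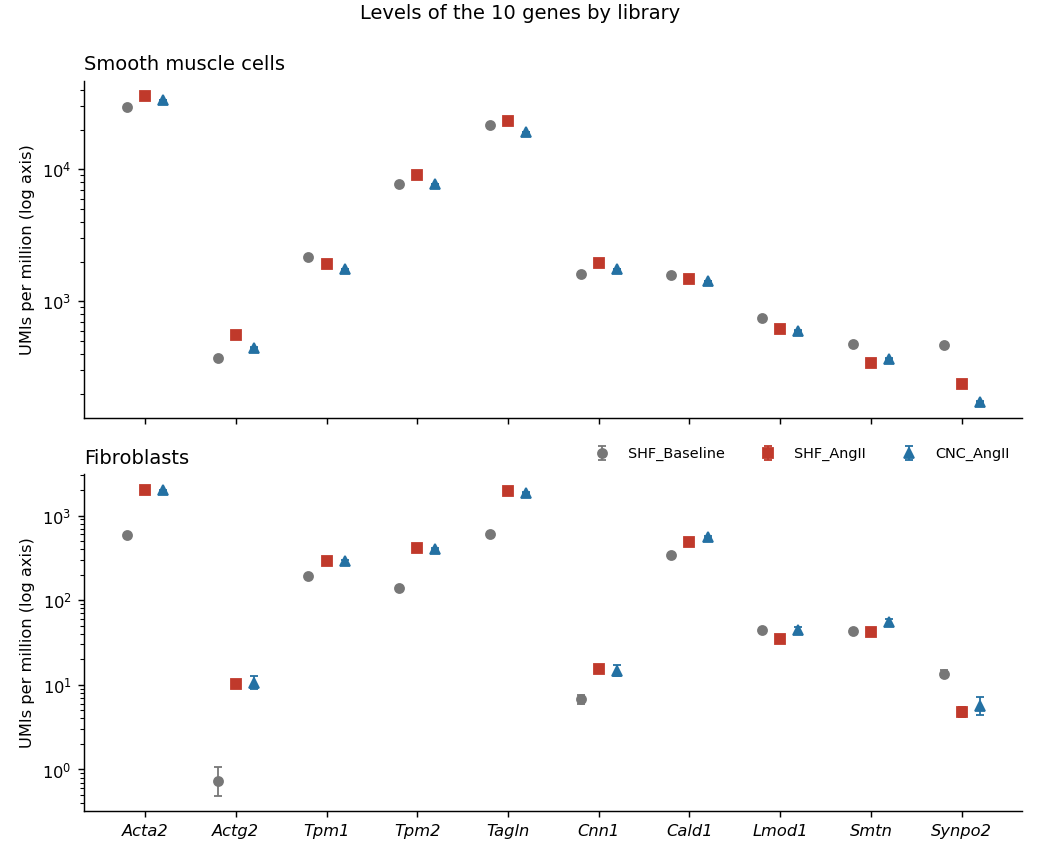
Level of each gene in CPM (log axis) in smooth muscle cells (top) and fibroblasts (bottom) of the 3 libraries; bars are 95% counting intervals, often smaller than the symbols. In smooth muscle cells Synpo2 spans 469 to 174 while Acta2 spans 29567 to 35668; in fibroblasts Acta2 is at 584 in SHF_Baseline and at 1986 and 1993 in the AngII libraries.

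Between CNC_AngII and SHF_AngII smooth muscle cells, none of the 10 members passed 1.5-fold in either direction. Of 6758 genes, 0.977% were higher and 0.962% lower in CNC_AngII, so the member count is near these shares and is not read as likeness. All but Smtn (log2 0.09, interval 0.07 to 0.12) were below 0, as were 3262 of the 6758 genes. The member median was -0.13 against 0.01 for all genes. Synpo2 (-0.44), Actg2 (-0.31) and Tagln (-0.28) lay below -0.24, the 5th percentile of all genes. Tpm2 was at -0.22, Cnn1 at -0.15, Tpm1 at -0.11 and Acta2 at -0.09, while Cald1 (-0.05) and Lmod1 (-0.03) hardly differed. CNC_AngII held more cells with Spp1, 8.46% (7.79 to 9.16) of its smooth muscle cells having at least 5 UMIs against 3.36% (2.86 to 3.92) in SHF_AngII. Among cells without a Spp1 UMI, Acta2 was 36641 CPM in SHF_AngII and 36198 in CNC_AngII, a log2 ratio of -0.02, and Cnn1 was at -0.08. Tagln (-0.25), Actg2 (-0.24) and Synpo2 (-0.37) stayed further from 0 in the same cells, and Lmod1 was at 0.01. Leaving out CNC_AngII cells with at least 3 of the 6 leukocyte markers put the member median at -0.11.

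Fibroblasts differed more than smooth muscle cells between SHF_AngII and SHF_Baseline. Acta2 was 584 CPM (576 to 592) in SHF_Baseline, 1986 (1973 to 1999) in SHF_AngII and 1993 (1967 to 2019) in CNC_AngII. Tagln was 606, 1962 and 1850 CPM, and Tpm2 was 140, 411 and 403 CPM. For all 3 genes the AngII libraries lay together and well above SHF_Baseline, at 3.40-fold for Acta2 (log2 1.76), 3.23-fold for Tagln (1.69) and 2.93-fold for Tpm2 (1.55) in SHF_AngII. Tpm1 was 191, 291 and 287 CPM, just past the threshold at 1.52-fold (log2 0.60), and 3 of the 14 alternatives left it below 1.5-fold. Cald1 was 341, 487 and 554 CPM, a SHF_AngII ratio of 1.43 (log2 0.51). The cycling markers moved with these genes, summing to 11.2 CPM in SHF_Baseline fibroblasts and to 190 and 202 CPM in the AngII libraries, and their part in the result was not tested.

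Of the 8 members with a mean of at least 10 CPM in this fibroblast comparison, 5 were higher and 0 lower by 1.5-fold; over 7686 genes 10.5% were higher and 27.6% lower, or 20.8% and 15.1% under TMM scaling. Cald1 also passed 1.5-fold under TMM scaling, at 0.79. The median log2 ratio was 0.84 for the 8 genes and -0.21 for all genes, which TMM scaling moved to 0.06. Cnn1, the fifth gene, was 6.75 CPM (5.95 to 7.63) in SHF_Baseline, 15.4 (14.3 to 16.6) in SHF_AngII and 14.7 (12.6 to 17.1) in CNC_AngII. Its mean of 11.1 CPM passed the minimum only through SHF_AngII, and its place in the count is not read as expression. Smtn at 43.3, 41.8 and 55.0 CPM and Lmod1 at 44.0, 34.9 and 44.1 CPM did not pass the threshold. The other members fell below the mean of 10 CPM. Actg2 was counted 28 times in SHF_Baseline fibroblasts (0.739 CPM, 0.491 to 1.07), and was 10.3 CPM (9.34 to 11.2) in SHF_AngII and 10.6 (8.82 to 12.7) in CNC_AngII. Synpo2 was 13.6 CPM (12.4 to 14.8) in SHF_Baseline, 4.81 (4.19 to 5.50) in SHF_AngII and 5.66 (4.37 to 7.21) in CNC_AngII. Its SHF_AngII to SHF_Baseline log2 ratio was -1.33, but its mean of 9.20 CPM kept it out of the count. Synpo2 was also lower with AngII in smooth muscle cells, and the part of free RNA in its fibroblast values was not tested.

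Between CNC_AngII and SHF_AngII fibroblasts, none of the 9 members with a mean of at least 10 CPM passed 1.5-fold. Of 7209 genes, 1.30% were higher and 1.10% lower in CNC_AngII, so the member count is near these shares and is not read as likeness. The ratio farthest from 0 was that of Smtn, at 0.39 on the log2 scale (0.26 to 0.53 without the pseudocount), then Lmod1 at 0.33 and Cald1 at 0.18. Smtn and Lmod1 lay above 0.29, the 95th percentile of all genes. Tagln was at -0.08 (-0.11 to -0.06). Acta2 was at 0.01 (-0.02 to 0.03), Tpm1 at -0.02 and Tpm2 at -0.03, differences within counting error. With a stricter gate of at least 2 Pdgfra UMIs and no Myh11 UMI, Actg2 reached 0.98 and was the sole member past 1.5-fold.

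**Figure D2:**
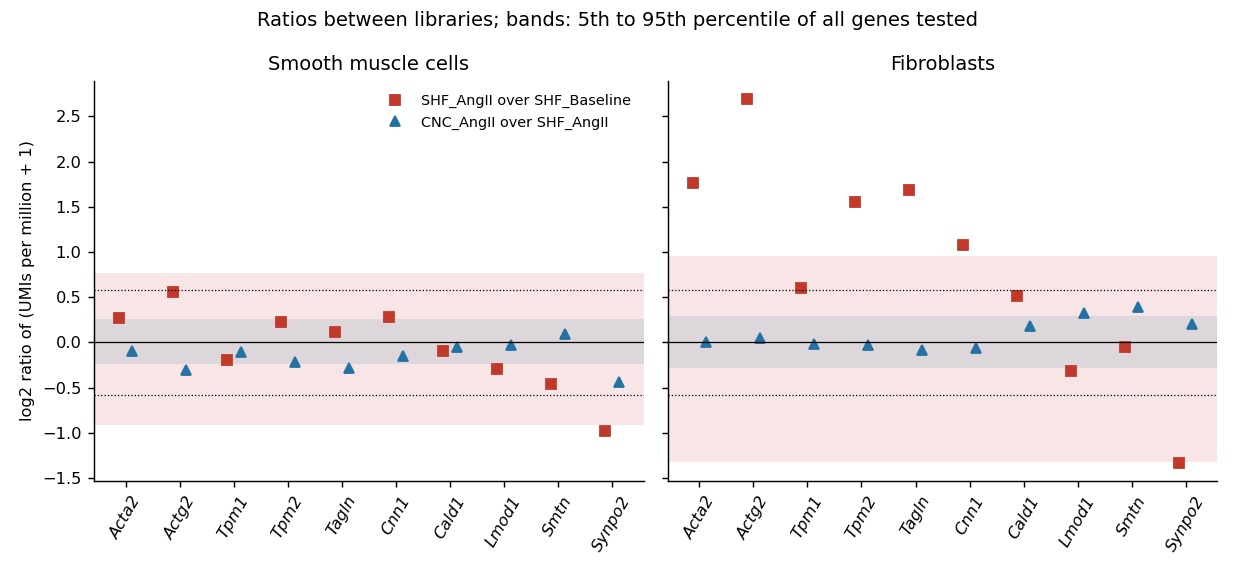
The log2 ratio of each gene, on CPM plus 1, between SHF_AngII and SHF_Baseline (squares) and between CNC_AngII and SHF_AngII (triangles), in smooth muscle cells (left) and fibroblasts (right); bands span the 5th to 95th percentile of all genes tested and dotted lines mark 1.5-fold. In fibroblasts Acta2 (1.76), Tpm2 (1.55), Tagln (1.69) and Cnn1 (1.08) lie above the band of all genes, which ends at 0.96. Cnn1 there has a mean of 11.1 CPM, and Actg2 and Synpo2 have a mean below 10 CPM.

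Smooth muscle mRNA is abundant in these suspensions, so the fibroblast values were set beside cells expected to lack the genes. CNC_AngII held 1789 cells with at least 3 leukocyte markers and at most 2 Myh11 UMIs (median 11011 UMIs, against 12369 for its fibroblasts). Acta2 was detected in 91.8% (90.5 to 93.1) of them and in 94.9% of the fibroblasts, a similar share, but its level was 294 CPM against 1993. Relative to the smooth muscle level of the library, these cells held Acta2 at 0.876%, Tpm2 at 0.970%, Cnn1 at 0.964%, Tagln at 0.661%, Lmod1 at 0.701% and Actg2 at 0.646%. The other members stood higher, with Synpo2 at 1.12%, Cald1 at 1.46%, Tpm1 at 2.26% and Smtn at 2.32%. CNC_AngII fibroblasts held Cnn1 at 0.835%, at the level of the leukocyte-marker cells, and Acta2 at 5.94%, Tagln at 9.70%, Tpm2 at 5.22%, Tpm1 at 16.3% and Cald1 at 38.9%. Cnn1 in CNC_AngII fibroblasts thus did not exceed its level in cells expected to lack it, and is not read as expression there. The other percentages are not at one common ratio.

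The SHF libraries had few other cells to compare. Cells with at least 3 endothelial markers and at most 2 Myh11 UMIs numbered 54 in SHF_Baseline and 32 in SHF_AngII. Their Acta2 level was 570 CPM and 1898 CPM, close to the 584 and 1986 CPM of the fibroblasts, and their Tagln level was 786 and 1739 CPM. Tpm2 was lower in them than in fibroblasts, at 38.2 and 129 CPM, and Cald1 was 356 and 561 CPM. Cnn1 was 10.6 CPM (3.44 to 24.7) and 6.0 CPM (0.726 to 21.7), intervals that hold the fibroblast values. In CNC_AngII the 37 such cells had Acta2 at 526 CPM, below its fibroblasts, and Tagln at 1634 CPM, near them. The 10 leukocyte-marker cells of SHF_Baseline held Acta2 at 219 CPM (136 to 335) and the 18 of SHF_AngII at 2527 CPM, with Tagln at 188 and 3281 CPM. The SHF_AngII to SHF_Baseline difference in Acta2 and Tagln was thus seen outside fibroblasts as well, in small numbers of cells. The part of free RNA in it was not tested. When fibroblasts with any UMI of Cnn1 or Myh11 were left out, Acta2 was 492 CPM in SHF_Baseline and 1730 in SHF_AngII, a log2 ratio of 1.81. When 5% of each library's summed profile was subtracted, Acta2 was 0 CPM in SHF_Baseline fibroblasts and 1019 CPM in SHF_AngII, and Cnn1 and Actg2 were 0 in both. Synpo2 was then 3.78 CPM in SHF_Baseline fibroblasts and 0 in SHF_AngII.

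**Figure D3:**
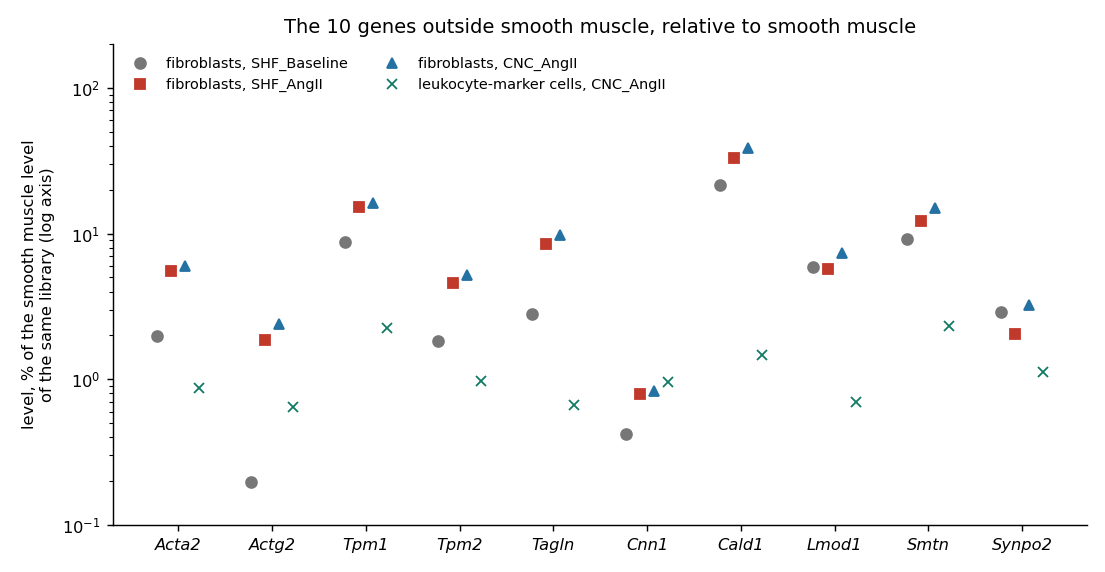
Level of each gene as a percent of its level in smooth muscle cells of the same library (log axis), in fibroblasts of the 3 libraries and in leukocyte-marker cells of CNC_AngII (crosses). Fibroblast Acta2 is at 1.97%, 5.57% and 5.94%; fibroblast Cnn1, at 0.420%, 0.789% and 0.835%, does not exceed the cross at 0.964%.

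Fibroblasts were uneven in these genes. After thinning to 5000 UMIs, which left out 717, 136 and 73 shallower fibroblasts, the median SHF_Baseline fibroblast had 1 Acta2 UMI and the 95th percentile 11, against 4 and 38 in SHF_AngII and 4 and 37 in CNC_AngII. The 10% of fibroblasts with the most Acta2 held 55.3% of its UMIs in SHF_Baseline, 44.6% in SHF_AngII and 44.9% in CNC_AngII. For Tagln those cells held 70.4%, 47.4% and 48.4%. Both the middle and the upper end of the distribution were thus higher in the AngII libraries, and the share held by the top cells was smaller.

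Smooth muscle cells with Spp1, which encodes osteopontin, a secreted matrix protein known to rise when smooth muscle leaves the contractile state, had less of most members. SHF_Baseline held 1 cell with at least 5 Spp1 UMIs among 2259, so this split was possible only with AngII. In SHF_AngII, Acta2 was 36641 CPM in the 4184 cells without Spp1, 33527 in the 299 cells with 1 to 4 UMIs and 24154 in the 156 cells with 5 or more. In CNC_AngII the 5040, 828 and 542 cells of those classes had 36198, 30673 and 22115 CPM. Acta2 was lower at each step of Spp1 in both libraries, to 65.9% and 61.1% of the level without Spp1.

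The same order held for most members. The middle class lay between the others for 9 of the 10 genes in SHF_AngII and for 10 in CNC_AngII. The share of all genes in that order was not worked out, so the counts are not read as particular to the members. Median depth rose in the same order, from 12688 through 18170 to 23126 UMIs in SHF_AngII and from 12504 through 16691 to 21286 in CNC_AngII. The part of depth in the order was not tested. Cnn1 was 2014 CPM without Spp1 and 1231 with 5 or more UMIs in SHF_AngII (log2 -0.71, interval -0.75 to -0.67), and 1911 and 1089 CPM in CNC_AngII (-0.81, -0.84 to -0.79). Synpo2 differed most, at 254 and 105 CPM in SHF_AngII (-1.27, -1.42 to -1.13 without the pseudocount) and 195 and 84.4 CPM in CNC_AngII (-1.20). Cald1 was nearly level, at 1468 and 1437 CPM in SHF_AngII and 1428 and 1396 CPM in CNC_AngII, -0.03 in each.

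In SHF_AngII 5 of the 10 members were lower by 1.5-fold and 0 higher, where 3.12% of 6724 genes were higher and 3.44% lower; the other members past it were Tpm1 (-0.62) and Tpm2 (-0.64), and the member median was -0.53 against -0.03 for all genes. In CNC_AngII 6 were lower and 0 higher, where 3.42% of 6810 genes were higher and 2.28% lower, with a member median of -0.61 against -0.01. Beyond those named, the CNC_AngII count took in Actg2 (-0.61), Tpm1 (-0.67) and Tpm2 (-0.61). Tagln was at -0.46 and -0.39, Lmod1 at -0.40 and -0.42 and Smtn at -0.24 and -0.30 in the 2 libraries. Depth moved with this split, since cells with at least 5 Spp1 UMIs had a median of 23126 UMIs in SHF_AngII and 21286 in CNC_AngII against 12688 and 12504 without Spp1. Among cells of 15000 to 30000 UMIs all 10 members stayed below 0, but only Cnn1 and Synpo2 passed 1.5-fold in either library, with Acta2 at -0.44 and -0.55. The member medians in these cells were -0.36 and -0.44, and of all genes 2.37% were lower in SHF_AngII and 1.18% in CNC_AngII.

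Markers of other states moved with Spp1 too, and their part in the result was not tested. The 3 cycling markers summed to 97.9 CPM with Spp1 and 11.4 without in SHF_AngII, and to 159 and 26.6 CPM in CNC_AngII. The fibroblast markers summed to 4470 and 3167 CPM in SHF_AngII and 4033 and 3207 CPM in CNC_AngII. Leukocyte markers stood at 442 and 222 CPM in CNC_AngII. In SHF_AngII they were at 0.511 CPM in cells with Spp1, with 5 of the 6 at 0, and at 1.36 CPM in cells without. Without cells holding at least 3 leukocyte markers, the CNC_AngII count was 6 of 10 lower (Acta2 -0.71, Actg2 -0.62, Cnn1 -0.81, Tpm1 -0.67, Tpm2 -0.60 and Synpo2 -1.21), where 2.98% of 6743 genes were higher and 2.37% lower.

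**Figure D4:**
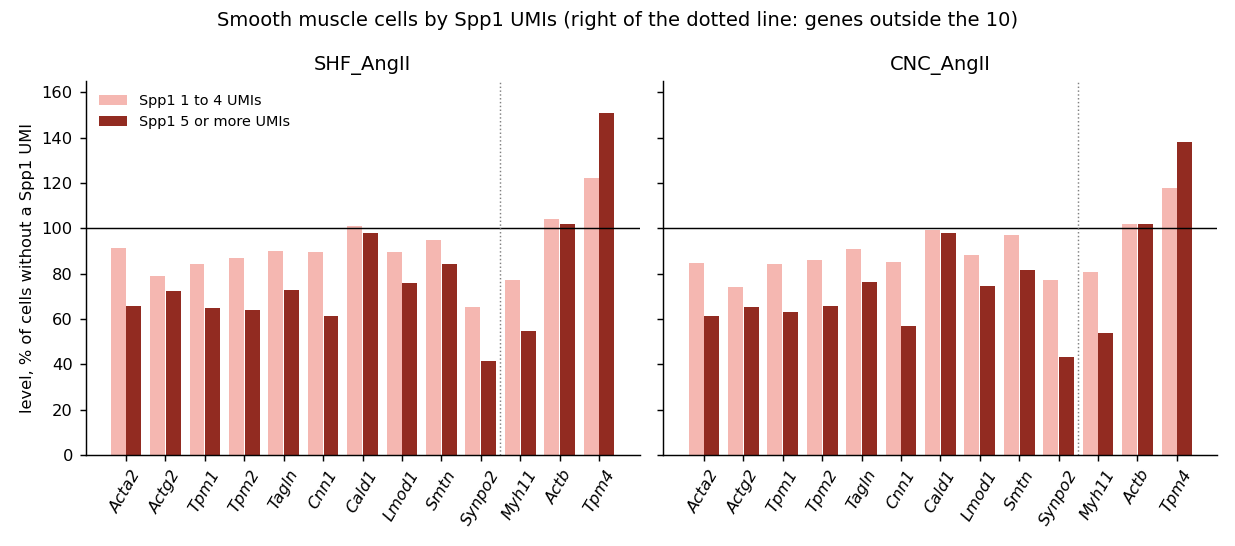
Level in smooth muscle cells with 1 to 4 (light) and with 5 or more (dark) Spp1 UMIs, as a percent of the level in cells without a Spp1 UMI, in SHF_AngII and CNC_AngII; Myh11, Actb and Tpm4, outside the 10 genes, are right of the dotted line. With 5 or more UMIs Synpo2 is at 41.4% and 43.2%, Acta2 at 65.9% and 61.1%, and Cald1 at 97.8% in both.

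Within smooth muscle cells of a library, Actg2 was the uneven member. At 5000 UMIs per cell, which left out 45, 59 and 82 cells, 47.8% of SHF_Baseline, 50.4% of SHF_AngII and 54.5% of CNC_AngII cells had an Actg2 UMI (54.6%, 56.3% and 62.7% before thinning), and 10% of the cells held 46.7%, 46.6% and 44.3% of its UMIs. Its coefficient of variation beyond counting error was 1.36, 1.42 and 1.32. For Acta2 it was 0.313, 0.349 and 0.362, and the top 10% of cells held 16% to 16.7% of the UMIs. Synpo2 came next, at 0.472, 0.691 and 0.654, and the other 7 genes lay between 0.272 and 0.410.

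Across single smooth muscle cells thinned to 5000 UMIs, Acta2 went most closely with Tpm2, with a Pearson r of 0.52 over 2214 cells of SHF_Baseline, 0.62 over 4580 cells of SHF_AngII and 0.66 over 6328 cells of CNC_AngII. Its r with Tagln was 0.48, 0.54 and 0.55 and with Cnn1 0.34, 0.48 and 0.50. Its r with Cald1 was 0.01, -0.03 and 0.01. These values describe cells that share a library and a fixed total of UMIs, where one abundant gene lowers the room for others.

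**Figure D5:**
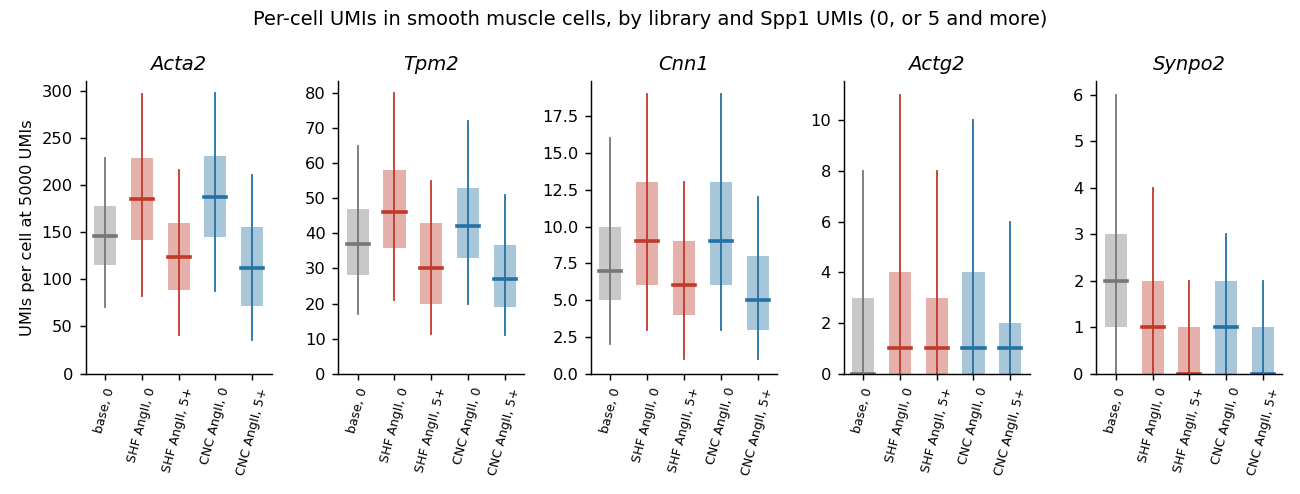
UMIs per smooth muscle cell after thinning to 5000 UMIs, for 5 of the genes, in cells without Spp1 (0) of each library and in cells with 5 or more Spp1 UMIs (5+) of the AngII libraries; thick lines are medians, boxes the 25th to 75th and thin lines the 5th to 95th percentile. The median Acta2 count of cells with Spp1 is 124 in SHF_AngII and 112 in CNC_AngII.

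Other genes of the contractile apparatus were read from lists of related genes. Their counts stand beside shares of all genes: between SHF_AngII and SHF_Baseline 8.73% were higher and 15.6% lower in smooth muscle cells (14.2% and 8.59% under TMM scaling), and 10.5% and 27.6% in fibroblasts (20.8% and 15.1%). With Spp1, 3.12% were higher and 3.44% lower in SHF_AngII, and 3.42% and 2.28% in CNC_AngII. The lists are short, several counts in them are near these shares, and nothing particular to a list is read from them. Among paralogs of the members, 15 of 16 listed genes were in all files and 8 had a mean of at least 10 CPM in smooth muscle cells. Of those 8, 1 was higher and 0 lower in SHF_AngII than in SHF_Baseline: Tpm4, a tropomyosin of non-muscle cells, at 162 and 359 CPM (log2 1.15). The cytoplasmic actins Actb (9905, 10857 and 10702 CPM) and Actg1 (2456, 3012 and 3015 CPM) did not pass 1.5-fold. The skeletal actin Acta1 had at most 13 UMIs per library in smooth muscle cells, and the cardiac actin Actc1 was at 10.8, 4.97 and 1.54 CPM. With Spp1, where the members were lower, Actb was at 0.03 and 0.02 and Actg1 at 0.16 and 0.23, while Tpm4 was at 0.60 in SHF_AngII and 0.46 in CNC_AngII. In fibroblasts of SHF_AngII over SHF_Baseline, 3 of 9 paralogs were higher and 1 lower.

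Of the 10 myosin and myosin phosphatase genes, 0 were higher and 1 lower in SHF_AngII smooth muscle cells than in SHF_Baseline: Ppp1cb, a catalytic subunit of the phosphatase, at 430 and 244 CPM (-0.82). With Spp1, 3 were lower in each AngII library. Among them was Ppp1r14a, which encodes the phosphatase inhibitor CPI-17 (-1.0 in SHF_AngII and -1.13 in CNC_AngII). Another was Myh11 (-0.87 and -0.89), whose UMIs set the smooth muscle gate, so its value is not read as a result. In fibroblasts 3 of 9 were higher and 2 lower in SHF_AngII than in SHF_Baseline, with Myl6, a myosin light chain, at 1083 and 3004 CPM (1.47).

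Of the 19 dense body and adhesion genes, 2 were higher and 1 lower in SHF_AngII smooth muscle cells. Palld, the actin crosslinker palladin, was 80.8 CPM in SHF_Baseline and 187 in SHF_AngII (1.20), and in fibroblasts 10.3 and 116 CPM (3.37). In smooth muscle cells the muscle intermediate filament gene Des was the one gene of the list past 1.5-fold between CNC_AngII and SHF_AngII. Of all genes, 0.977% were higher and 0.962% lower in that comparison. Des was at 520 CPM in SHF_Baseline, 662 in SHF_AngII and 88.7 in CNC_AngII smooth muscle cells (-2.88, CNC_AngII over SHF_AngII). It was also lower with Spp1, at -1.42 and -1.22, as was Pdlim3, a Z-disc protein gene, at -0.92 and -0.81.

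Of the 11 actin turnover genes, 2 were higher and 0 lower in SHF_AngII smooth muscle cells, with Tmsb10, an actin monomer binder, at 205 and 355 CPM (0.79). In fibroblasts 4 were higher and 1 lower, the latter Gsn, the filament-severing gelsolin, at 11048 and 1539 CPM (-2.84). Among SRF, its cofactors and Klf4, 3 of 4 genes with a mean of at least 10 CPM were lower in SHF_AngII smooth muscle cells and 0 higher. In fibroblasts 3 of 3 were lower, Klf4 among them. Between the AngII libraries only 3 of the list had that mean in smooth muscle cells and 1 in fibroblasts. Some may thus have passed the minimum only through SHF_Baseline, where they were higher, and these counts are not read as a result. Klf4, a repressor of contractile genes, was 423 CPM in SHF_AngII fibroblasts and 289 in CNC_AngII (-0.55).

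The genes whose levels were most like those of Acta2 over 8 points (fibroblasts and smooth muscle cells without Spp1 in 3 libraries, and with Spp1 in 2) were Tpm2, with a root mean square difference of 0.12 in log2(CPM + 1) after centring, then Hspb6 (0.22), Tagln (0.30), Myom1 (0.33) and Myl9 (0.34), out of 2592 genes. For Cnn1 they included Myh11 (0.35), Kcnmb1 (0.36), Tinagl1 (0.53) and Pcp4l1 (0.60). Myh11 is a gene of the gates that made these points, so its place is set by the gates and is not a result. For Synpo2 they were E030013I19Rik (0.40), Ppp1r14a (0.44), Itga8 (0.54), Sorl1 (0.55) and Sost (0.56). The points share 3 libraries, and most of the range is the difference between smooth muscle cells and fibroblasts.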

How the data were processed

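The authors deposited tables of raw UMI counts per gene and cell, 1 table per library; the submitters' processing notes name fastp, STAR 2.5, HTSeq 0.6.1 and the build mm10, with no role or order, and per the labels' protocols libraries came from the 10x Chromium Single Cell 3′ v3 kit. The gene annotation release is not given in the sources used here. Names were matched through synonyms for 534 genes, leaving 18095 common genes. Cells needed 500 detected genes or more and a mitochondrial share no higher than 10%, and doublets marked by Scrublet (scanpy 1.11.5; 207 to 243 per library) were left out. Counts were summed per library and class and scaled by the class's total UMIs. Ratios are log2(CPM + 1) differences, and 1.5-fold (0.58) in genes with a mean of at least 10 CPM is called higher or lower. Interval bounds are exact Poisson for levels, exact Clopper-Pearson for shares and conditional binomial for ratios, taken without the pseudocount. TMM factors came from edgeR 4.0.16 (R 4.3.3). Thinning drew 5000 UMIs per cell and left shallower cells out. Ratios and intervals were tested on simulated data. With 1 library per group there were no p-values.

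The genes, lists, gates and settings were chosen with earlier results of these data known. Genes named were all 10 members, the 4 related genes with the largest ratio in each comparison (mean of at least 50 CPM) with Acta1, Actc1, Actb and Actg1, and the 5 genes most like Acta2, Cnn1 and Synpo2, of which 1 is not reported here. Pcsk7, Gm11946 and Gm11947 are named for their overlap with members.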

Additional observations from a re-analysis of the deposited data

Results flagged for a closer look

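Effects of opposite sign in smooth muscle cells and fibroblasts of the same libraries, with both counting intervals excluding 0, were found for 3 genes. The share of all genes meeting this rule was not worked out, so the count is not read as particular to the members. With 1 library per group the differences were not tested. The values are log2 ratios without a pseudocount. Between SHF_AngII and SHF_Baseline, Tpm1 was at -0.19 in smooth muscle cells and 0.61 in fibroblasts, and Cald1 at -0.10 and 0.51. Between CNC_AngII and SHF_AngII, Lmod1 was at -0.03 in smooth muscle cells and 0.34 in fibroblasts, and Cald1 at -0.05 and 0.18. Under TMM scaling the smooth muscle value of Cald1 between SHF_AngII and SHF_Baseline was 0.08, so the opposite signs of that pair did not hold there. The smooth muscle value of Tpm1 was -0.01 under the same scaling. Among smooth muscle cells without a Spp1 UMI, Lmod1 was at 0.01 (-0.01 to 0.03) between CNC_AngII and SHF_AngII, so its opposite signs did not hold in those cells.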

How the results depend on the processing

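No paired analysis was possible because each group had 1 library. Of 918 member ratios recomputed under alternatives, 607 moved by less than the counting interval and none past 1.5-fold changed sign. Of 184 recomputed counts of members past 1.5-fold, 13 moved by more than 1.5 times. For SHF_AngII over SHF_Baseline in smooth muscle cells, 2 members were higher under the stricter cell filter (Actg2 1.21 and Cnn1 0.63), and 1 with gates set after thinning or with TMM scaling, against 0; the share of all genes that was higher was 12.2%, 7.84% and 14.2% under these settings, against 8.73%. In fibroblasts, 3 were higher instead of 5 with the gate of at least 2 Pdgfra UMIs and no Myh11 UMI, and 1 was lower instead of 0 with gates after thinning, with totals without mitochondrial and ribosomal protein genes, with 5% free RNA subtracted and with no CPM minimum, where 10.9% of all genes were higher under the first setting and 22.2% to 28.2% lower under the others. For CNC_AngII over SHF_AngII in fibroblasts, 1 was higher instead of 0 with that same Pdgfra gate (1.18% of all genes). With Spp1, the count lower in SHF_AngII was 3 with thinned counts and 2 among cells of 15000 to 30000 UMIs, instead of 5 (7.88% and 2.37% of all genes lower), and in CNC_AngII 3 with gates after thinning and 2 among those cells, instead of 6 (2.35% and 1.18%). The cause of these shifts was not tested. The depth range, the leukocyte-marker exclusion and the exclusion of fibroblasts with Cnn1 or Myh11 were chosen after seeing the data. Counting error was small for every member in smooth muscle cells; in fibroblasts it limits Actg2, Cnn1 and Synpo2.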

Other observations

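Cells in neither gate or in both were outside the comparisons. Cells with at least 5 Myh11 UMIs and a Pdgfra UMI numbered 396, 423 and 345 in SHF_Baseline, SHF_AngII and CNC_AngII. The 10 genes supplied 5.58%, 5.16% and 5.40% of their UMIs, and Acta2 was 24511, 23312 and 26620 CPM, below the level of the smooth muscle cells in each library. Cald1 was 1584, 1307 and 1328 CPM. Cells in neither class numbered 1780, 1574 and 2630, and the 10 genes supplied 0.419%, 0.962% and 0.383% of their UMIs, above fibroblasts in the SHF libraries (0.197% and 0.524%). Acta2 was 1535, 3842 and 1666 CPM in them and Cnn1 40.6, 79.5 and 66.3 CPM. What these cells are was not tested.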
